A study of Mus musculus with 10 samples.

Results

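The genes described here encode the proteins of the cytosolic ribosome, 86 genes of the 17919 in the deposited tables. They were chosen by symbol alone. Symbols that begin with Rpl or Rps and a digit, the stalk genes Rplp0, Rplp1 and Rplp2, and Rpsa were kept, while the Rps6k kinases and symbols that contain -ps were left out. By their place in the ribosome, 31 belonged to the small subunit, 43 to the large subunit and 3 to the stalk, so that 77 were subunits of the common ribosome. A further 8 were paralog copies of a subunit gene (Rpl22l1, Rps27l, Rpl36al, Rpl7l1, Rpl3l, Rpl10l, Rpl39l and Rps4y2), and 1, Rps19bp1, encodes a protein that binds Rps19 and is no subunit. Rps4y2 is listed as a transcribed pseudogene in the reference gene table, under the name Rps4l.

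The cells were neural stem cells of ICR mice, isolated from the ventral midbrain on embryonic day 10 and expanded in culture, where each passage took 4 days. All cultures had received a lentivirus, either with Lin28a or as a mock control. RNA-seq covered Lin28a and control cultures at passage 3 (P3) and at passage 1 (P1), and polysome-seq, the sequencing of RNA that sediments with several ribosomes on a sucrose gradient, covered Lin28a and control cultures at P3. Every one of these 6 groups was a single library. The differences reported therefore have no replicate check, no test could be made, and each value describes these libraries. The sources used here name neither the promoter that drives Lin28a, nor the number of embryos pooled, nor the gradient fractions sequenced.

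The ribosome consists of a small subunit, which holds the messenger RNA and checks the match of codon and transfer RNA, and a large subunit, which forms the peptide bond and whose acidic stalk recruits the elongation factors. Ribosomal protein messenger RNAs are among the most abundant of growing cells, and most of them begin with a C and a run of pyrimidines, the terminal oligopyrimidine motif, through which mTOR and Larp1 control their translation in mammals. Lin28a, a protein of embryonic and stem cells, keeps let-7 precursors from being processed into mature microRNAs and also binds many messenger RNAs.

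The libraries followed their labels. Lin28a was at 104 FPKM (fragments per length of gene and per size of library) in P3 Lin28a and 0.0620 in P3 control, and at 478 FPKM in P1 Lin28a and 0.128 in P1 control. In polysome-seq it was at 17.9 RPKM (the same scale for reads) in Lin28a and at the floor of the file in control. All 11 markers of neural stem and radial glial cells were at 1 or more in each library, and all 4 microglial markers were under 1 in each. The depth of these libraries is unknown, because the files hold no counts.

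The pyrimidine run lies at or near the annotated start of many of these genes, and the following stretches of 15 bases before and 15 bases from the start are shown because the run is the sequence feature that ribosomal protein messenger RNAs are known to share. Capitals mark the longest run that begins with C and goes on with at least 4 bases of C or T. The first 6 genes hold such a run, and Rpl41 and Rplp0, at the end, do not.
Rpl27a (chr7:109519180-109519209, plus strand): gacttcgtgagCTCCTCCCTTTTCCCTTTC
Rpl35 (chr2:39005117-39005146, minus strand): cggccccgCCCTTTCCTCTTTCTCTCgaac
Rpl15 (chr14:18270972-18271001, minus strand): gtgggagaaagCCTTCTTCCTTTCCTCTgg
Rps6 (chr4:86857353-86857382, minus strand): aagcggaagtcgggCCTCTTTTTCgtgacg
Rps27 (chr3:90213634-90213663, minus strand): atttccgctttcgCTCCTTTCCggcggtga
Rpl38 (chr11:114668565-114668594, plus strand): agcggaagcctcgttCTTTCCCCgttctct
Rpl41 (chr10:128549154-128549183, minus strand): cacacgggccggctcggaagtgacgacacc
Rplp0 (chr5:115559452-115559481, plus strand): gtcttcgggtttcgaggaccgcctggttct
The sequences come from a RefSeq table of promoters on build GRCm38.p6, in which 65 of the 86 genes were matched, while the expression tables were made on mm9. In 13 of 65 genes (20.0%) the annotated start base was a C followed by at least 4 bases of C or T. The share was 3.01% of the 27025 genes of that table. Such a C can lie inside a longer run that begins before the start, as in Rpl35. Within 10 bases on either side of the start a run was found in 39 of 65 genes, against 34.4% of all genes. On the sense strand, from 20 bases before to 50 bases after the start, CTTTCC was found in 29.2% of these genes and 3.79% of all genes, and CTTTTC in 13.8% and 2.86%. Both of these motifs can overlap the pyrimidine run. On either strand of the whole stretch of 250 bases before to 50 bases after the start, CCGGAAG was found in 40.0% and 9.93%. Matched subunit genes with and without a run within 10 bases of an annotated start had like ratios of polysome-seq to RNA-seq. The 34 genes with a run had a median log2 ratio at P3 of -4.08 in Lin28a and -4.08 in control. The 23 without had -3.97 in Lin28a and -4.07 in control. These classes rest on annotated starts, which may differ from the starts used in these cells. A gene in the class without a run may thus still carry the motif. Whether the motif itself goes with the ratio was therefore not tested.

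In RNA-seq the subunit genes lay close together at the top of the table. The 77 subunit genes had a median of 1213 FPKM in P3 Lin28a and 1234 in P3 control, and of 852 FPKM in P1 Lin28a and 894 in P1 control. In summed level the 86 genes made up 17.4% of the library in P3 Lin28a and 15.9% in P3 control, and 14.9% in P1 Lin28a and 15.0% in P1 control. The level at the 90th percentile of the subunit genes was 3.16 times that at the 10th percentile in P3 Lin28a, 3.03 times in P3 control, 2.93 times in P1 Lin28a and 3.07 times in P1 control. Ranked among all genes, 58 of the 86 were in the first 100 in P3 Lin28a and 53 in P3 control, and 59 in P1 Lin28a and 59 in P1 control.

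Rpl41, which encodes the smallest protein of the ribosome, was the highest of these genes. It was at 3266 FPKM in P3 Lin28a and 3550 in P3 control, and at 2518 FPKM in P1 Lin28a and 2615 in P1 control. Rpl23a, a large subunit protein at the exit of the peptide tunnel, followed with 2803 FPKM in P3 Lin28a and 2897 in P3 control, and 1753 in P1 Lin28a and 1860 in P1 control. Next by P3 Lin28a level came Rpl32 (2141 FPKM), Rps26 (2039 FPKM) and Rps15 (1905 FPKM). All of these were higher at P3 than at P1 in both cultures. The lowest by P3 Lin28a level were Rpl34 (9.81 FPKM), Rps19bp1 (20.2 FPKM), Rps27 (25.6 FPKM), Rpl7l1 (43.2 FPKM) and Rpl30 (81.1 FPKM). For Rpl34 and Rps27 most of the signal stood on a row of another name, as described further on. Rpl10l, Rpl39l and Rpl3l, copies known from testis or muscle, were under 1 in all 6 libraries.

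**Figure D1:**
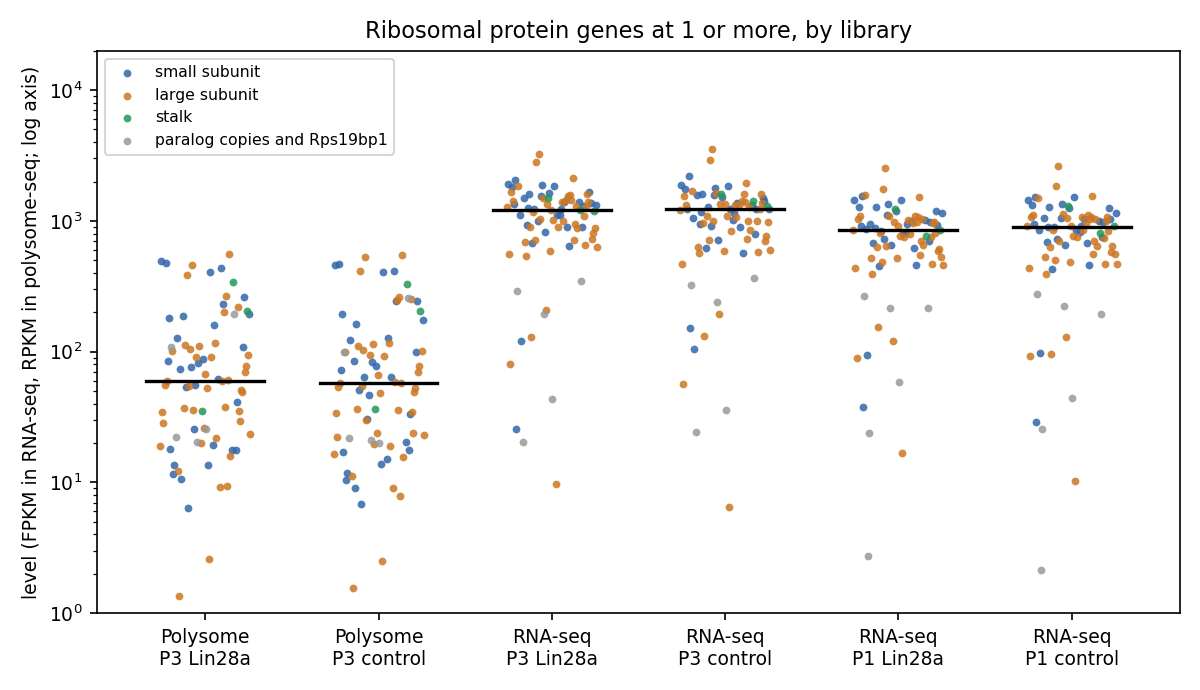
Level of each ribosomal protein gene at 1 or more in the 6 libraries (vertical log axis, FPKM in RNA-seq and RPKM in polysome-seq). Points are genes, coloured by their place in the ribosome, and black lines are medians of the 77 subunit genes. The medians are 59.6 and 57.6 RPKM in the polysome libraries of Lin28a and control, against 1213 and 1234 FPKM in the P3 RNA-seq libraries, and the polysome levels spread much more widely.

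With passage the ribosomal protein genes were higher as a group in both cultures. Ratios are given on the log2(value + 1) scale, and a gene entered a comparison where it reached 1 in any library compared. The median log2 ratio of P3 to P1 was 0.45 in Lin28a, or 1.36-fold, and 0.38 in control, or 1.30-fold, while the median of all genes was -0.01 in Lin28a and -0.00 in control. Other genes at 100 FPKM or more in both libraries compared had medians of 0.11 in Lin28a (518 genes) and 0.26 in control (522 genes). In Lin28a, 70 of 83 measured genes were higher at P3 past 1.2-fold, against 32.4% of all genes. In control, 67 of 83 were higher past 1.2-fold, against 35.8% of all genes. Lower past 1.2-fold were 4 of 83 in Lin28a, against 32.1% of all genes, and 4 of 83 in control, against 35.3%. The differences were small: past 1.5-fold, 13 of 83 genes were higher in Lin28a, against 18.2% of all genes, and 11 of 83 in control, against 22.6%. In both cultures at once, 64 of 83 were higher past 1.2-fold, against 28% of all genes.

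Small and large subunit genes moved alike. The 31 small subunit genes had a median log2 ratio of P3 to P1 of 0.46 in Lin28a and 0.39 in control, the 43 large subunit genes of 0.45 in Lin28a and 0.39 in control, and the 3 stalk genes of 0.49 in Lin28a and 0.52 in control. Rpsa, a small subunit protein also known as the precursor of the laminin receptor, was at 934 FPKM in P3 Lin28a and 949 in P3 control, and at 678 in P1 Lin28a and 685 in P1 control. Rpl10a, the protein often tagged to purify ribosomes from chosen cells, was at 890 FPKM in P3 Lin28a and 957 in P3 control, and at 626 in P1 Lin28a and 635 in P1 control. In both genes the P3 libraries lay above the P1 libraries. Rpl5 and Rpl11, which with 5S ribosomal RNA can bind Mdm2 and so stabilise p53, had log2 ratios of 0.48 (Rpl5) and 0.49 (Rpl11) in Lin28a, and 0.29 (Rpl5) and 0.36 (Rpl11) in control. Rps6, the small subunit protein that S6 kinases phosphorylate, was at 818 FPKM in P3 Lin28a and 718 in P3 control, and at 649 in P1 Lin28a and 655 in P1 control. Its log2 ratio was 0.33 in Lin28a, past 1.2-fold, and 0.13 in control, short of it, and the difference between the cultures was not tested.

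High passage ratios were found in both subunits and the stalk. In the small subunit Rps4x had log2 ratios of 0.66 in Lin28a and 0.60 in control. Not all stalk genes were high, with Rplp2 at 0.27 in Lin28a and 0.32 in control. Rplp1, an acidic stalk protein, was at 1202 FPKM in P3 Lin28a and 1423 in P3 control, and at 767 in P1 Lin28a and 806 in P1 control (log2 ratios of 0.65 and 0.82 for the Lin28a and control cultures). Rpl27a had log2 ratios of 0.73 in Lin28a and 0.82 in control. Rpl3, which reaches into the peptidyl transferase centre, had 0.79 in Lin28a and 0.70 in control. Rpl22, an RNA-binding large subunit protein, had 0.77 in Lin28a and 0.59 in control, and Rpl28 had 0.69 in Lin28a and 0.53 in control. Rpl30 stood apart on the low side. It was at 81.1 FPKM in P3 Lin28a and 57.1 in P3 control, and at 89.2 in P1 Lin28a and 93.1 in P1 control, and its log2 ratio was -0.14 in Lin28a and -0.70 in control. Its pair of P1 libraries lay above its pair of P3 libraries, and P3 control was the lowest of the 4.

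The size of the passage difference depended on how the libraries were scaled. When each library was rescaled to the same sum, the median log2 ratio of the ribosomal protein genes was 0.22 in Lin28a and 0.05 in control, and that of all genes was -0.22 in Lin28a and -0.30 in control. On that scale 24 of 83 were higher and 8 of 83 lower past 1.2-fold in Lin28a, where 22.9% of all genes were higher and 46.9% lower. In control 8 of 83 were higher and 5 of 83 lower, where 23.6% of all genes were higher and 52.0% lower. Set against the median of all genes, the ribosomal protein genes were higher by 0.46 (log2) in Lin28a and 0.39 in control as deposited, and by 0.44 in Lin28a and 0.35 in control after rescaling. Of the stalk genes, Rplp2 turned direction in control, at -0.02 after rescaling. In bulk RNA, a change in the number of cells of a type and a change in RNA per cell cannot be told apart.

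Markers of other cell types moved with passage as well. The summed level of 8 neuronal markers was 390 FPKM in P3 Lin28a and 195 in P3 control, and 792 in P1 Lin28a and 902 in P1 control. That of 8 oligodendrocyte lineage markers was 1213 FPKM in P3 Lin28a and 1962 in P3 control, and 110 in P1 Lin28a and 181 in P1 control, with Mog under 1 in all 4. That of 5 astrocyte markers was 1623 FPKM in P3 Lin28a and 3858 in P3 control, and 115 in P1 Lin28a and 159 in P1 control, with Gfap and S100b under 1 at P1. The 11 neural stem cell markers summed to 4554 FPKM in P3 Lin28a and 6608 in P3 control, and 3277 in P1 Lin28a and 3610 in P1 control. Their median level was 97.7 FPKM in P3 Lin28a and 85.4 in P3 control, and 93.9 in P1 Lin28a and 88.2 in P1 control. Between the cultures at both passages, and with passage in control, this sum and median thus went in opposite directions. The 5 mesenchymal markers summed to 32.3 FPKM in P3 Lin28a and 26.9 in P3 control, and 46.0 in P1 Lin28a and 55.0 in P1 control. The 4 endothelial markers summed to 3.67 FPKM in P3 Lin28a and 4.61 in P3 control, and 8.91 in P1 Lin28a and 7.98 in P1 control, with Pecam1, Cdh5 and Tek under 1. Their part in the passage difference of the ribosomal protein genes was not tested.

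The outlying passage ratios of Rps27, Rpl26 and Rpl34 stood beside rows for a copy of the same name, which the symbol pattern does not catch. These copies were looked up after the values were seen, from names in the reference gene table. Rps27, a small subunit protein, was at 25.6 FPKM in P3 Lin28a and 152 in P3 control, and at 37.7 in P1 Lin28a and 28.7 in P1 control. Gm9846, listed as the retrogene Rps27rt, was at 2719 FPKM in P3 Lin28a and 2431 in P3 control, and at 1923 in P1 Lin28a and 1935 in P1 control. Between 94.1% and 99.1% of the summed level of the pair thus stood on the copy in RNA-seq. Rps27 alone had a log2 ratio of P3 to P1 of -0.54 in Lin28a and 2.37 in control, and the sum of the pair had 0.48 in Lin28a and 0.40 in control.

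Rpl26 and Rpl34, both of the large subunit, gave the same picture. Rpl26 was at 128 FPKM in P3 Lin28a and 132 in P3 control, and at 153 in P1 Lin28a and 96.6 in P1 control, while Gm15772, a transcribed pseudogene with the synonym Rpl26, was at 1608 FPKM in P3 Lin28a and 1600.5 in P3 control, and at 1151 in P1 Lin28a and 1250.0 in P1 control. Rpl26 alone had a log2 ratio of P3 to P1 of -0.25 in Lin28a and 0.45 in control, and the sum had 0.41 in Lin28a and 0.36 in control. Rpl34 was at 9.81 FPKM in P3 Lin28a and 6.50 in P3 control, and at 16.8 in P1 Lin28a and 10.3 in P1 control, while Rpl34-ps1 was between 953 and 1299 FPKM in the 4 libraries. Rpl34 alone had log2 ratios of -0.72 in Lin28a and -0.59 in control, and the sum had 0.41 in Lin28a and 0.37 in control. All 3 sums lay near the median of the whole group. Reads that match a gene and its copy equally could be split between the rows by the authors' counting, so the separate values of these genes are uncertain.

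**Figure D2:**
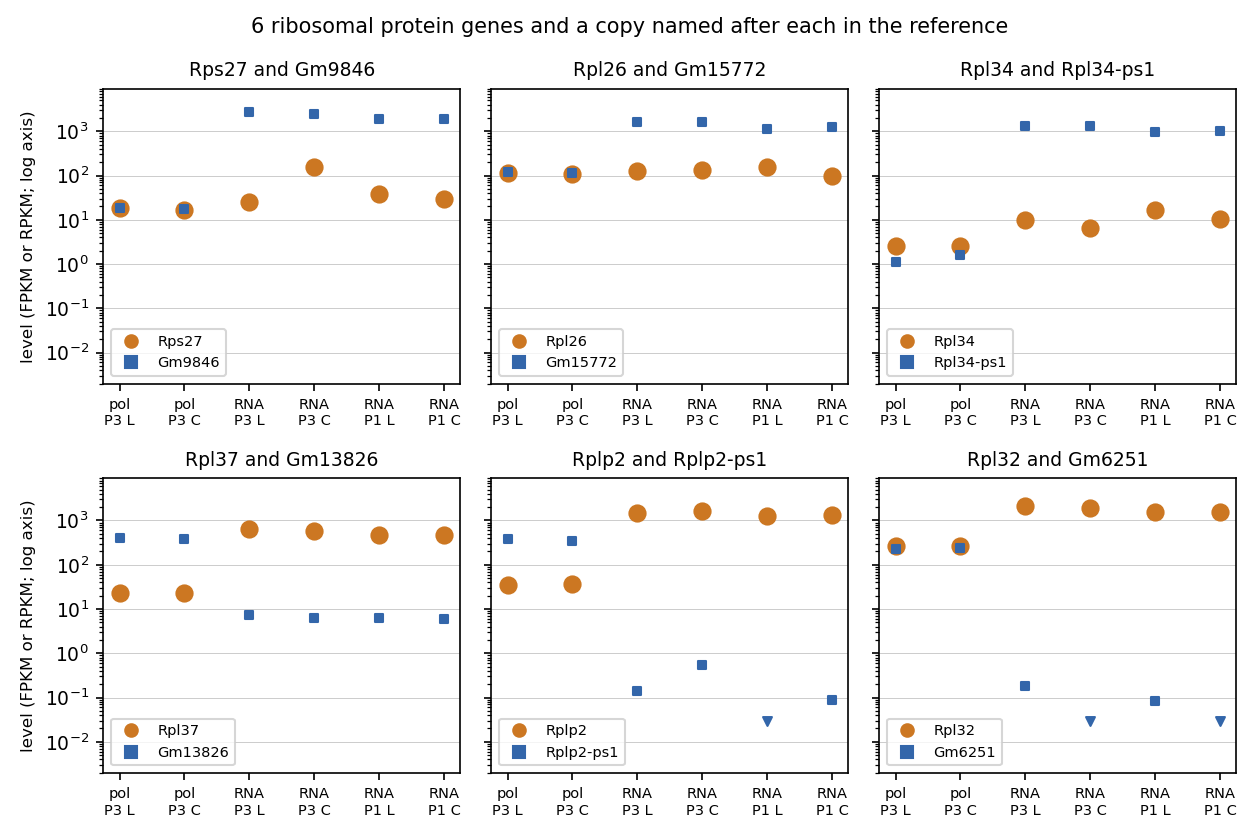
Levels of 6 ribosomal protein genes (orange circles) and of a copy named after each in the reference (blue squares) in the polysome (pol) and RNA-seq (RNA) libraries of Lin28a (L) and control (C) cultures, on a log axis in RPKM or FPKM. Triangles at the bottom are values under the lowest level drawn. For Rps27, Rpl26 and Rpl34 the copy held most of the RNA-seq level, and for Rpl37 and Rplp2 the copy held most of the polysome level.

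Gene by gene the passage ratios of both cultures, which share no library, were compared. Across the 77 subunit genes Pearson's r was 0.16 and Spearman's rho 0.65, and without Rps27 r was 0.78. With the copies added to their parent genes r was 0.82 and rho 0.73. Over all 12723 genes measured in both cultures r was 0.90 and rho 0.90. Genes are not independent replicates and share the library scale, so these are descriptions. The SD of the log2 passage ratio across the subunit genes was 0.24 in Lin28a and 0.32 in control as deposited, and 0.14 in Lin28a and 0.20 in control with the copies added. Across all genes it was 0.75 in Lin28a and 0.93 in control.

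**Figure D3:**
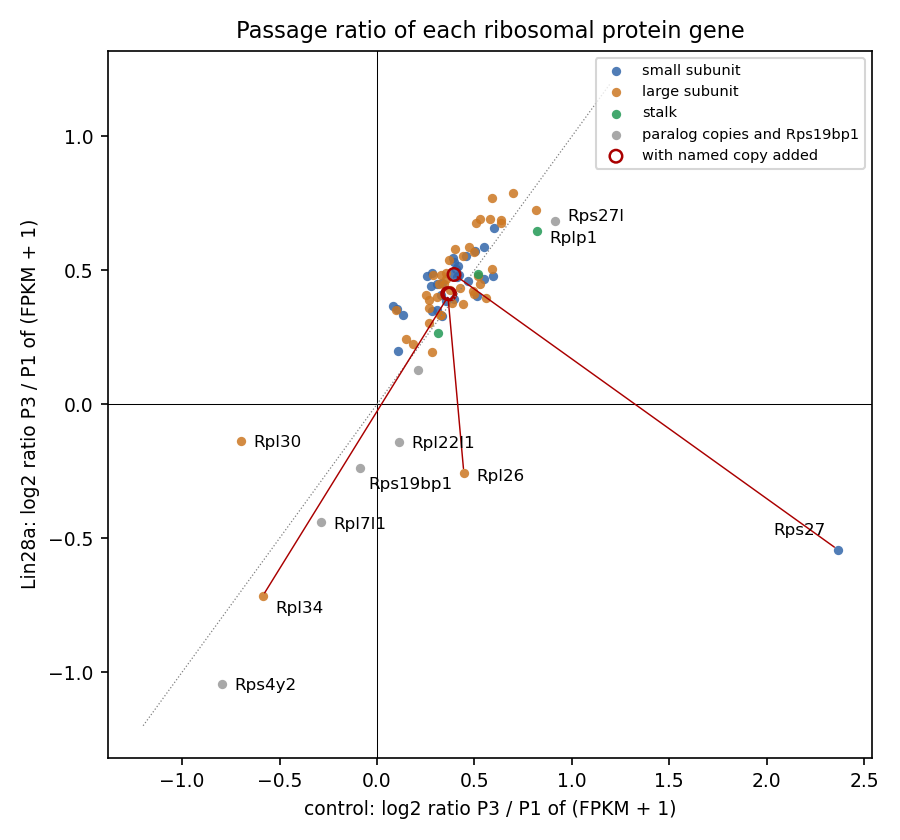
Log2 ratio of P3 to P1 of each measured ribosomal protein gene in the Lin28a culture (vertical) against the control culture (horizontal). Open red circles show Rps27, Rpl26 and Rpl34 after the level of the named copy was added, joined to the value without it, and the dotted line marks equal ratios. Most genes crowd around the medians of 0.45 in Lin28a and 0.38 in control, and the 3 joined genes move into that cloud.

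Lin28a over control differences of these genes were small at both passages. At P3 the median log2 ratio of Lin28a to control was 0.04, against -0.01 for all genes, and 78 of 82 measured genes lay within 1.2-fold, against 56.4% of all genes. By any amount 51 of 82 were higher in Lin28a at P3, against 48.5% of all genes. At P1 the median was -0.02, against -0.01 for all genes, and 79 of 83 lay within 1.2-fold, against 82.9% of all genes. Other genes at 100 FPKM or more in both libraries compared also differed little at P1. Of 592 such genes, 14 were higher and 33 lower past 1.2-fold at P1. At P3, 42 of 678 were higher and 242 lower. By any amount 27 of 83 were higher in Lin28a at P1, against 48.4% of all genes. At both passages 76 of 82 lay within 1.2-fold, against 51.2% of all genes. The difference between cultures in their passage ratios, Lin28a minus control, had a median of 0.06 and lay within 1.2-fold for 79 of 83 genes, against 59.6% of all genes. After rescaling to the same sum, 13 of 83 were higher and 2 of 83 lower past 1.2-fold in that difference, where 27.8% of all genes were higher and 12.9% lower.

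The spread across subunit genes depended on the copy rows. The SD of the log2 ratio of Lin28a to control across the 77 subunit genes was 0.32 at P3 and 0.13 at P1 as deposited, and 0.11 at P3 and 0.05 at P1 with the copies added. Across all genes it was 0.44 at P3 and 0.26 at P1. Rplp0, the stalk base and a common reference gene for expression, was at 1196 FPKM in P3 Lin28a and 1301 in P3 control, and at 854 in P1 Lin28a and 906 in P1 control. All 3 stalk genes were a little lower in Lin28a, with log2 ratios at P3 of -0.12 for Rplp0, -0.24 for Rplp1 and -0.12 for Rplp2, and at P1 of -0.09 for Rplp0, -0.07 for Rplp1 and -0.07 for Rplp2. None of these passed 1.2-fold. Rescaled to the same sum, the P3 ratios were -0.01 for Rplp0, -0.13 for Rplp1 and -0.00 for Rplp2. The same rescaling moved the P3 median of all measured ribosomal protein genes to 0.16 and that of all genes to 0.09. As deposited 2 of 82 ribosomal protein genes were higher and 2 of 82 lower past 1.2-fold at P3, and after rescaling 10 of 82 were higher and 1 of 82 lower, where 30.1% of all genes were higher and 15.4% lower.

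Few of these genes differed by more between the cultures. Rpl30 was higher in Lin28a at P3, with a log2 ratio of 0.50, and stood at -0.06 at P1, with the same limit on the counting of its reads. Rpl15 was at 558 FPKM in P3 Lin28a and 469 in P3 control, a log2 ratio of 0.25, and stood at -0.00 at P1. Rpl7l1, a copy of Rpl7, had log2 ratios of 0.26 at P3 and 0.42 at P1, at 43.2 FPKM in P3 Lin28a and 35.9 in P3 control, and 59.0 in P1 Lin28a and 44.0 in P1 control. On the low side, Rpl22l1 had -0.29 at P3 and -0.04 at P1, and Rps19bp1 had -0.24 at P3 and -0.09 at P1. Rps27, at -2.53 at P3 and 0.38 at P1, had 0.09 at P3 and -0.00 at P1 once its copy was added. Likewise Rpl34, at 0.53 at P3 and 0.66 at P1, had -0.02 at P3 and -0.05 at P1 with its copy, and Rpl26, at -0.04 at P3 and 0.66 at P1, had 0.00 at P3 and -0.05 at P1. At P1 the low ratios were led by those of Rps20 (-0.16), Rps4x (-0.14) and Rpl36a (-0.13).

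**Figure D4:**
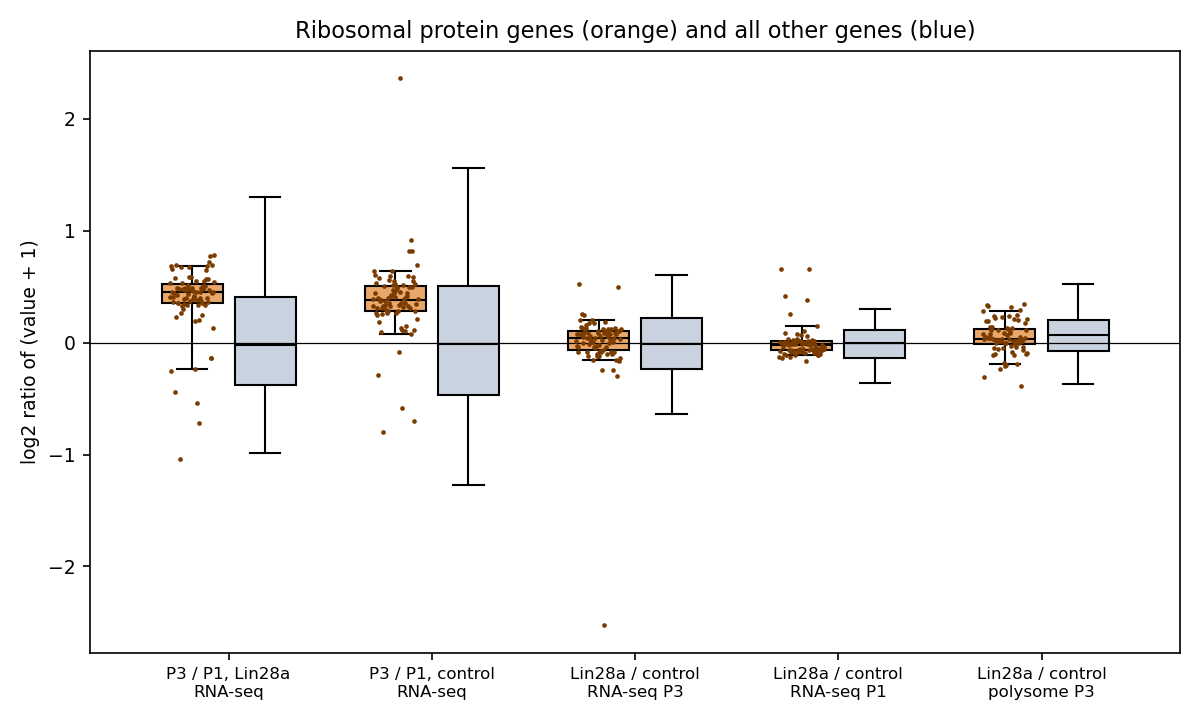
Log2 ratios of (value + 1) of the ribosomal protein genes (orange boxes, with each gene as a point) and of all other genes (blue boxes) in 5 comparisons. Boxes show the middle 50% with the median, and whiskers the 5th and 95th percentiles. The passage medians of the ribosomal protein genes are 0.45 in Lin28a and 0.38 in control, while their medians for Lin28a over control lie between -0.02 and 0.04.

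Copies of subunit genes did not all follow their parents. Rpl22l1 and Rpl22 encode alternative forms of the same RNA-binding large subunit protein. Rpl22l1 was at 195 FPKM in P3 Lin28a and 239 in P3 control, and at 215 in P1 Lin28a and 221 in P1 control. Rpl22 was at 206 FPKM in P3 Lin28a and 195 in P3 control, and at 121 in P1 Lin28a and 129 in P1 control. The level of Rpl22l1 was thus 0.94 times that of Rpl22 in P3 Lin28a and 1.23 times in P3 control, and 1.78 times in P1 Lin28a and 1.71 times in P1 control. Both P3 libraries lay below both P1 libraries in this ratio, with Rpl22 higher at P3 and Rpl22l1 near its P1 level.

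Rps27l, a copy of Rps27 known as a p53 target, had the highest passage ratio in control after Rps27. It was at 345 FPKM in P3 Lin28a and 367 in P3 control, and at 214 in P1 Lin28a and 194 in P1 control, with log2 ratios of P3 to P1 of 0.68 in Lin28a and 0.92 in control. Rpl36al was at 291 FPKM in P3 Lin28a and 321 in P3 control, and at 267 in P1 Lin28a and 277 in P1 control, or between 0.28 and 0.41 times the level of Rpl36a. Rpl7l1 was lower at P3, with log2 ratios of -0.44 in Lin28a and -0.29 in control, against 0.45 in Lin28a and 0.32 in control for Rpl7. Rps4y2 was low throughout, at 0.816 FPKM in P3 Lin28a and 0.803 in P3 control, and 2.74 in P1 Lin28a and 2.13 in P1 control, while Rps4x was between 949 and 1589 FPKM.

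In polysome-seq the ribosomal protein genes stood far lower in the table than in RNA-seq. The 77 subunit genes had a median of 59.6 RPKM in the Lin28a polysomes and 57.6 in the control polysomes, and the 86 genes made up 3.12% of the summed level in Lin28a and 3.32% in control. The median log2 ratio of polysome-seq to RNA-seq at P3 was -3.93 in Lin28a and -3.85 in control, while that of all genes was -0.41 in Lin28a and -0.49 in control. Lower past 2-fold in polysome-seq were 76 of 82 in Lin28a, against 23.8% of all genes, and 77 of 82 in control, against 28.8%. Other genes at 100 FPKM or more in RNA-seq had medians of -1.44 in Lin28a (729 genes) and -1.71 in control (811 genes). Both assays were deposited as separately made values, so loading on polysomes, the fractions taken, library preparation and read counting cannot be told apart in this ratio.

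The polysome ratio differed widely between these genes, and in nearly the same order in both cultures. The polysome level at the 90th percentile of the subunit genes was 22.7 times that at the 10th percentile in Lin28a and 24.9 times in control, against 3.16 times in P3 Lin28a RNA-seq and 3.03 times in P3 control RNA-seq. Rpl8 had the highest polysome level, at 557 RPKM in Lin28a and 549.8 in control, against 1291 FPKM in P3 Lin28a RNA-seq and 1286 in P3 control RNA-seq. Its log2 ratio of polysome-seq to RNA-seq was -1.21 in Lin28a and -1.22 in control. At the other end, Rpl21 was the lowest of the 77 subunit genes in polysomes, at 1.36 RPKM in Lin28a and 1.56 in control, against 539 FPKM in P3 Lin28a RNA-seq and 569 in P3 control RNA-seq, a log2 ratio of -7.84 in Lin28a and -7.80 in control. Rps29 was at 6.40 RPKM in Lin28a polysomes and 6.83 in control polysomes, against 1236 FPKM in P3 Lin28a RNA-seq and 1273 in P3 control RNA-seq, a log2 ratio of -7.39 in Lin28a and -7.35 in control. Rpl9 had -7.14 in Lin28a and -7.03 in control, Rps12 had -6.99 in Lin28a and -6.98 in control, and Rps18 had -6.75 in Lin28a and -6.86 in control. Rps19bp1, which is no subunit, was at 22.2 RPKM in Lin28a and 21.7 in control, against 20.2 FPKM in P3 Lin28a and 24.1 in P3 control, close to its RNA-seq level. Across the 77 subunit genes the ratios of both cultures, which share no library, had a Pearson's r of 0.98 and a Spearman's rho of 0.99, against 0.95 (r) and 0.93 (rho) over 12563 genes in all.

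The ratio moved with the number of pseudogenes that carry a gene's name in the reference gene table. Only symbols made of the gene's name and -ps were counted, so pseudogenes under other names, such as Gm15772, were missed. The 15 subunit genes without any had a median log2 ratio of polysome-seq to RNA-seq of -2.82 in Lin28a and -2.75 in control. The 38 genes with 1 to 4 had -4.03 in Lin28a and -3.96 in control, and the 24 genes with 5 or more had -4.83 in Lin28a and -4.90 in control. Spearman's rho across the 77 genes was -0.45 in Lin28a and -0.45 in control, given as a description. In P3 RNA-seq the same classes differed little in level. Medians in Lin28a were 1230 FPKM (no named pseudogene), 1199 (1 to 4) and 1260 (5 or more). Those in control were 1239 FPKM (no named pseudogene), 1256 (1 to 4) and 1186 (5 or more). Genes without a named pseudogene included Rpl8, Rps9, Rps21 and Rpl4, and those with many included Rpl21 (15), Rps12 (23), Rpl31 (24) and Rps2 (12). The classes overlapped: Rps29, with 1 named pseudogene, was among the lowest, and Rpl24, with none, was at -5.71 in Lin28a and -5.70 in control. Hosting a small nucleolar RNA did not go with the ratio, with medians of -4.07 in Lin28a and -4.08 in control for the 30 host genes, and -3.97 in Lin28a and -3.91 in control for the 47 others.

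**Figure D5:**
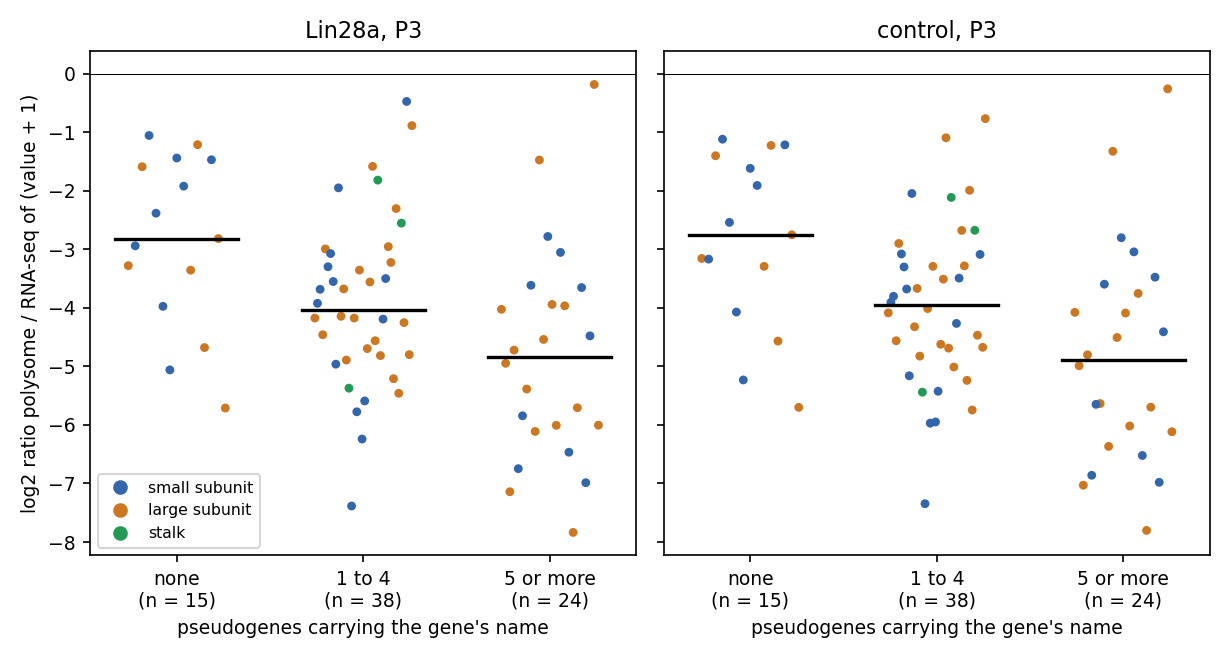
Log2 ratio of polysome-seq to RNA-seq at P3 for the 77 subunit genes (points, coloured by place in the ribosome) in Lin28a (left) and control (right), by the number of pseudogenes that carry the gene's name in the reference. Black lines are medians, which run from -2.82 to -4.83 in Lin28a and from -2.75 to -4.90 in control, and the classes overlap.

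Rows for named copies bore on the polysome values as well. For Rplp2 the polysome level was 34.9 RPKM in Lin28a and 36.2 in control, while Rplp2-ps1 was at 379 RPKM in Lin28a and 346 in control, although its RNA-seq level was under 1 FPKM in all 4 libraries. For Rpl37 the polysome level was 23.4 RPKM in Lin28a and 23.1 in control, while Gm13826, listed as Rpl37rt, was at 411 RPKM in Lin28a and 374 in control and between 6.10 and 7.44 FPKM in RNA-seq. Gm6251, listed as Rpl32l, was at 231 RPKM in Lin28a and 238 in control, next to 268 in Lin28a and 262 in control for Rpl32, and under 1 FPKM in RNA-seq. For Rplp2, Rpl37, Rpl31 and Rps15a the assays placed most of the signal on different rows, while Rpl32 stayed above Gm6251 in both. Rpl31-ps12 held 83.6% (Lin28a) and 82.7% (control) of its pair in polysomes, against at most 0.515% in RNA-seq. Rps15a-ps4 and Rps15a-ps6 held 82.9% (Lin28a) and 83.5% (control), against at most 15.6%. With copies added, the polysome to RNA log2 ratio in Lin28a went from -5.71 to -3.20 for Rpl31 and from -3.05 to -0.80 for Rps15a. For Rpl37 it went from -4.70 to -0.55. For Rps27 and Rpl26 the copy held 50.1% (Rps27) and 51.1% (Rpl26) of the pair in both polysome libraries, against 94.1% to 99.1% (Rps27) and 88.2% to 92.8% (Rpl26) in RNA-seq. These polysome shares were the same in both libraries to every digit kept, and whether the same reads were counted on both rows, so that the sums hold them more than once, was not tested. With all named copies added, those of Rps19 and Rps23 included, the median log2 ratio of polysome-seq to RNA-seq was -3.80 in Lin28a and -3.78 in control.

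Between the cultures the polysome levels of these genes were close. The median log2 ratio of Lin28a to control in polysome-seq was 0.03, against 0.06 for all genes, and 74 of 82 genes lay within 1.2-fold, against 73.2% of all genes. The share within 1.2-fold, 90.2%, was thus above that of all genes. By any amount 58 of 82 (70.7%) were higher in Lin28a, which was near the 62.8% of all genes. Rescaled to the same sum, the median was -0.06, with 0 of 82 higher and 7 of 82 lower past 1.2-fold, where 14.6% of all genes were lower. As deposited 6 of 82 were higher and 2 of 82 lower, where 17.7% of all genes were higher and 9.10% lower. Rps27a, made as a fusion with ubiquitin, was at 19.4 RPKM in Lin28a polysomes and 15.2 in control polysomes, a log2 ratio of 0.33, against 1115 FPKM in P3 Lin28a RNA-seq and 1011 in P3 control RNA-seq, a log2 ratio of 0.14. Rpl30 was at 28.5 RPKM in Lin28a and 22.2 in control, a log2 ratio of 0.35, and was thus higher in Lin28a at P3 in both assays. As in RNA-seq, whether some of its reads were counted on other rows was not tested. Rps14 had 0.31 and Rpl7l1 0.32. On the low side, Rps27l was at 195 RPKM in Lin28a and 255 in control, a log2 ratio of -0.39, Rpl39 had -0.30, Rps2 had -0.23 and Rps16 had -0.21.

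As deposited, the ratio of polysome-seq to RNA-seq of these genes differed little between Lin28a and control. The median of the log2 difference, Lin28a minus control, was 0.01, against 0.07 for all genes, and 73 of 82 genes lay within 1.2-fold, against 60.2% of all genes. As deposited 4 of 82 were higher and 5 of 82 lower past 1.2-fold, where 26.5% of all genes were higher and 13.4% lower. Other genes at 100 FPKM or more in both P3 RNA-seq libraries had a median of 0.23 as deposited. Of 678 such genes, 303 were higher and 34 lower past 1.2-fold. After rescaling to the same sum 1 of 82 was higher and 28 of 82 lower, where 11.9% of all genes were higher and 29.9% lower. The rescaled median was -0.20, against -0.11 for all genes. Rps27 stood apart at 2.61, and at 0.00 once its copy was added. Among the others Rplp1 had 0.30, Rpl12 had 0.29 and Rps19bp1 had 0.28, and Rpl34 had -0.49 (-0.10 once its copy was added), Rpl13a had -0.31, Rps27l had -0.30 and Rps16 had -0.29. Paralogs differed from their parents in polysomes too. Rpl22l1 was at 0.18 times the polysome level of Rpl22 in Lin28a and 0.19 times in control, and Rpl36al was at 3.02 times that of Rpl36a in Lin28a and 3.30 times in control, whereas it was below Rpl36a in all 4 RNA-seq libraries.

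Other genes of the ribosome pathway moved in different directions with passage. The 6 measured ribosomal protein and ribosome-associated genes outside the symbol pattern had a median log2 ratio of P3 to P1 of 0.33 in Lin28a and 0.26 in control. They include Fau, which encodes Rps30 as a fusion and was at 0.68 in Lin28a and 0.51 in control. The 14 genes of elongation, initiation (Eif3 subunits and Eif4b) and poly(A) binding had 0.32 in Lin28a and 0.10 in control, with the elongation factor Eef1a1 at 0.68 in Lin28a and 0.42 in control and Pabpc1 at 0.82 in Lin28a and 0.45 in control. The 76 mitochondrial ribosomal protein genes had 0.05 in Lin28a and 0.22 in control. Rescaled to the same sum, the list outside the symbol pattern was at 0.09 in Lin28a and -0.07 in control, the elongation, initiation and poly(A) binding list at 0.08 in Lin28a and -0.23 in control, and the mitochondrial list at -0.16 in Lin28a and -0.11 in control, so that several of these directions turned.

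Ribosome biogenesis genes went the other way. The 47 genes measured had a median log2 ratio of P3 to P1 of -0.68 in Lin28a and -0.67 in control, and 39 of 47 were lower past 1.2-fold in Lin28a, against 32.1% of all genes, and 39 of 47 in control, against 35.3%. Rescaled to the same sum, the median was -0.91 in Lin28a and -0.98 in control. Fbl, the methyltransferase of box C/D particles, was at 62.4 FPKM in P3 Lin28a and 56.1 in P3 control, and at 112 in P1 Lin28a and 102 in P1 control. Nop58, a core protein of the same particles, was at 23.6 FPKM in P3 Lin28a and 17.1 in P3 control, and at 57.5 in P1 Lin28a and 49.2 in P1 control. In both genes the P1 libraries lay above the P3 libraries. Against control, biogenesis genes had a median log2 ratio of Lin28a to control of 0.12 at P3 and 0.15 at P1 in RNA-seq. At P1 46 of 47 were higher in Lin28a by any amount, against 48.4% of all genes. In polysome-seq the median was 0.13, against 0.06 for all genes. Rescaled to the same sum, the polysome median was 0.05, against -0.02 for all genes.

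Among regulators of ribosomal protein translation, Larp1, which binds the terminal oligopyrimidine motif, had a log2 ratio of P3 to P1 of -0.70 in Lin28a and -0.90 in control. Mtor had 0.20 in Lin28a and 0.10 in control. Over the whole list of regulators, which includes the gene Lin28a, the median was -0.29 in the Lin28a culture and -0.45 in control. Lower by any amount were 11 of 17 in Lin28a, against 51% of all genes, and 12 of 16 in control, against 50.3%. Rescaled to the same sum, the list median was -0.51 in Lin28a and -0.77 in control. A rescaled ratio of Mtor itself was not computed. Of the Myc family, activators of ribosome genes, Myc was at 8.64 FPKM in P3 Lin28a and 12.1 in P3 control, and at 13.4 in P1 Lin28a and 20.6 in P1 control. Mycn was at 9.06 FPKM in P3 Lin28a and 4.25 in P3 control, and at 23.8 in P1 Lin28a and 19.8 in P1 control. Both were lower at P3 than at P1 in both cultures, and in Lin28a Myc was lower than in control and Mycn higher.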

How the data were processed

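The authors deposited RNA-seq as FPKM, with 1 value for each gene. Per the submitters' processing notes, Cufflinks 2.1.1, TopHat2 2.0.6 and Bowtie 1.0.0 were used with build mm9. The polysome values were deposited in the same layout and are read as RPKM from their steps. The file headers name neither unit. Sample descriptions speak of poly(A) selection, but the kit in the protocol is for total RNA. The 4 small RNA libraries of the series were not used. Columns of other samples numbered 0. The values of a few single genes are not reported here. Members and lists were chosen with earlier results of these data known.

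Log2 ratios used a pseudocount of 1, which understates changes of low genes, over all genes at 1 or more in at least 1 library compared, and members were counted past 1.2-, 1.5- and 2-fold beside all genes. The calculation was tested on simulated data. Genes named are the 5 highest and lowest in P3 Lin28a, the 4 highest and lowest ratios of each comparison among members at 5 or more, paralog pairs, members past 2-fold in any comparison and 7 members with known roles. By the polysome to RNA ratio nearly all members pass 2-fold, so further genes described from among them were picked after their values were seen. Alternatives were a pseudocount of 0.1, other filters, other scalings and other sets of members. Python 3.11.15, numpy 2.4.6, pandas 2.3.3 and matplotlib 3.10.9 were used.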

Additional observations from a re-analysis of the deposited data

Results flagged for a closer look

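Rps27 was picked out because its passage ratio had opposite directions in the cultures, past 1.2-fold in each, with a log2 ratio of P3 to P1 of -0.54 in Lin28a and 2.37 in control. In the same way its log2 ratio of Lin28a to control was -2.53 at P3 and 0.38 at P1. Neither difference was tested, since each group held 1 library. The values of 2.37 and -2.53 rest on the P3 control library, where Rps27 was at 152 FPKM, while it was between 25.6 and 37.7 FPKM in the other 3 RNA-seq libraries. Gm9846, the copy named after it, held between 94.1% and 99.1% of the summed level of the pair, and the sum had log2 ratios of P3 to P1 of 0.48 in Lin28a and 0.40 in control.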

How the results depend on the processing

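Of 297 values recomputed under 11 alternative settings, 278 stayed close to the value as deposited and 19 moved. Close means for a median on the same side of 1.2-fold and less than 1.2-fold away, and for a share within 1.5 times or 5 percentage points. Medians near 0 could change sign within this limit, as that of Lin28a over control in polysome-seq did, at -0.06 after rescaling to the same sum, against 0.03 as deposited. Rescaling the libraries to the same sum moved the median passage log2 ratio to 0.22 in Lin28a and 0.050 in control, the share of members higher at P3 past 1.2-fold to 28.9% in Lin28a and 9.64% in control, and the share with a passage ratio higher in Lin28a than in control past 1.2-fold to 15.7%. It also moved the share higher past 1.2-fold in Lin28a at P3 to 12.2% in RNA-seq and 0% in polysome-seq, with 8.54% lower in polysome-seq, the share with a lower polysome to RNA ratio in Lin28a to 34.1%, and the median polysome to RNA ratio to -3.06 in Lin28a and -2.77 in control. Upper quartile scaling gave 50.6% higher with passage in control, 15.9% with a lower polysome to RNA ratio in Lin28a, and polysome to RNA medians of -3.34 in Lin28a and -3.15 in control. Centring on the median of all genes gave -3.53 in Lin28a and -3.38 in control, and keeping only the 19 measured members with no named pseudogene, an alternative added after seeing the data, gave -2.38 in Lin28a and -2.54 in control. The cause of these shifts was not tested. Pseudocount, filters, leaving out Rps27 and adding the copies moved none of the medians and shares. No paired analysis was possible because each group held 1 library. Depth is unknown, so no interval can be given for low members such as Rpl21 and Rps4y2.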
